A study of Homo sapiens with 12 samples.

Results

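The experiment described here is the combined knockdown of MAPK8 and MAPK9 by siRNA in MIO-M1 cells, set against control siRNA. It comprises 6 of the 12 bulk RNA libraries of the series, chosen by their labels: 3 siMAPK8_9 libraries (siMapk8+9 in the labels) and 3 control siRNA libraries that were made for this knockdown, all taken on day 3 and all wild type in genotype. MIO-M1 is an established human cell line of Müller glia, the radial glial cells of the retina. The other 6 libraries are a knockdown of MAPK14, which encodes the stress kinase p38 alpha, with a control siRNA of its own. The study sought the signalling changes downstream of each kinase. The siRNA sequences and doses were not given in the sources used here, and nothing in the labels says whether the libraries came from separate cultures, so the tests compare these libraries and the spread among them, which may be technical.

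MAPK8 and MAPK9 encode JNK1 and JNK2, the c-Jun N-terminal kinases. They are switched on by the kinases MKK4 and MKK7 (MAP2K4 and MAP2K7), which in turn answer to a broad set of MAP3 kinases during stress and cytokine signalling. JNK phosphorylates c-Jun and its partners in the AP-1 transcription factor, and dual-specificity phosphatases (DUSPs) switch the kinases off again. In retinal glia the pathway is known for its part in the response to injury.

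Total counts were 10072307, 20136463 and 9246294 in siMAPK8_9 libraries 1, 2 and 3, and 31296944 to 31510571 in the control libraries. A count of 0 allowed up to 0.149 to 0.324 CPM, the count scaled to library size, in the siMAPK8_9 libraries and 0.0952 to 0.0959 CPM in the controls, counting error only. These limits use total counts without TMM factors, which were 0.679, 1.06 and 0.666 in siMAPK8_9 and 1.27 to 1.29 in control. On the TMM scale the limits are higher in siMAPK8_9 libraries 1 and 3 and lower in library 2 and the controls. The mitochondrially encoded genes took 36.9%, 8.93% and 35.0% of the counts in the siMAPK8_9 libraries, against 1.92% to 2.03% in the controls. Library 2 also held epithelial transcripts that were at or near 0 in the other 5 (described at the end), so the counts are given with and without it. Fold changes tilted with transcript length: the median log2 fold change was 0.95 in the shortest of 5 equal bins of genes and -0.78 in the longest. Counts are therefore also given after length correction, in which the lowess trend on effective length was taken out of every library. Counts written as a pair, such as 6 and 0, are of members higher and lower at an adjusted p under 0.05, and "rose by" or "fell by" gives the log2 fold change ± SE. Fold changes are without length correction unless stated, and their size could change with it. The part of RNA quality in the length tilt was not tested.

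**Figure D1:**
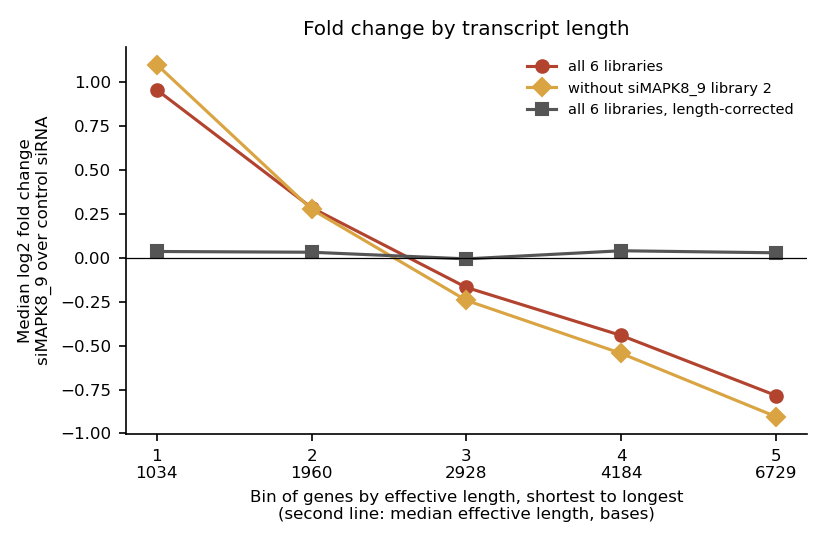
Median log2 fold change of siMAPK8_9 over control siRNA (y axis) in 5 bins of genes by effective length (x axis, shortest to longest, 2599 genes each). The shortest bin lies at 0.95 and the longest at -0.78 with all 6 libraries, at 1.10 and -0.90 without siMAPK8_9 library 2, and at 0.04 and 0.03 after length correction.

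Both targets were lower in every siMAPK8_9 library than in any control library. MAPK8 (chr10:48306677-48439360, GRCh38.p14) had 10.8, 8.67 and 10.7 CPM in siMAPK8_9 and 28.0, 27.8 and 27.8 CPM in control, where CPM are TMM-scaled. Its mean level fell to 36.1% of control (log2 fold change -1.48 ± 0.14 (SE), adjusted p = 0.000667; edgeR quasi-likelihood test, Benjamini-Hochberg adjustment over all genes tested). MAPK9 (chr5:180233143-180292083) had 28.1, 18.5 and 22.7 CPM in siMAPK8_9 and 64.5, 65.2 and 63.4 CPM in control, and its mean fell to 35.9% of control (log2 fold change -1.49 ± 0.17 (SE), adjusted p = 0.00103). Both fell in library 2 at least as far as in the others, and the log2 fold changes without it were -1.36 and -1.32. After length correction their log2 fold changes were -0.80 (adjusted p = 0.015) for MAPK8 and -1.01 (adjusted p = 0.00995) for MAPK9. MAPK10, the JNK3 gene of neurons, was below the filter on low counts, with 0, 0.518 and 0 CPM in the siMAPK8_9 libraries and 0.323, 0.224 and 0.175 CPM in the controls. MAPK14 itself had 69.1, 56.8 and 42.7 CPM in siMAPK8_9 and 87.1, 83.4 and 84.5 CPM in control (log2 fold change -0.60 ± 0.17 (SE), adjusted p = 0.0258), and after length correction its value was -0.21 (adjusted p = 0.367).

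Of 13124 genes tested, 3514 (26.8%) were higher and 3424 (26.1%) lower in siMAPK8_9, 6938 (52.9%) in all, and 3731 of these changed at least 2-fold. Leaving out any of the control libraries left 4509 to 4560 genes past the threshold. Without library 2 the counts were 4514 higher (33.6%) and 5040 lower (37.5%) of 13444, or 71.1%, and 6865 genes were past the threshold in the same direction in both fits. After length correction, 2820 of 12995 genes (21.7%) were higher and 2121 (16.3%) lower, 4941 in all, and 3570 of them had also been called in the same direction without that correction. Scaled by total counts, which the mitochondrial reads of the siMAPK8_9 libraries enter in full, 1122 genes were higher and 4914 lower, and the median of all genes was -0.71, against -0.05 with TMM. Directions given here are relative to TMM scaling, and lists whose larger direction was lost or turned under total counts have those counts beside them. Of the genes past the threshold, library 2 lay nearest to the controls among the 3 siMAPK8_9 libraries for 2484 of 3514 higher genes and 2119 of 3424 lower genes.

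Of the kinases and scaffolds upstream of JNK, 1 of 24 tested members was higher and 9 lower; the counts were 2 and 18 without library 2 and 5 and 3 after length correction. The higher member was MAP3K13, a leucine zipper MAP3 kinase (1.09 ± 0.24, adjusted p = 0.00921), named after its value was seen. MAP3K4, a MAP3 kinase that feeds both JNK and p38, had 37.6, 43.8 and 39.6 CPM in siMAPK8_9 and 89.5, 89.8 and 92.2 CPM in control (log2 fold change -1.16 ± 0.10 (SE), adjusted p = 0.000502). MAP3K3 fell by 1.28 ± 0.21 (adjusted p = 0.00299). With length correction MAP3K4 was at -0.55 and MAP3K3 at -0.79. MAP3K20, the ZAK kinase that senses stalled ribosomes, had a log2 fold change of -0.83 ± 0.09 (adjusted p = 0.00094), which was -0.14 after length correction (adjusted p = 0.349). MAP3K2 turned with that correction, at -0.68 ± 0.10 without it and 0.35 with it (adjusted p = 0.0157). The direct JNK kinases did not pass the threshold: MAP2K4 had 24.1, 32.7 and 24.9 CPM in siMAPK8_9 and 34.6, 35.2 and 34.6 CPM in control (adjusted p = 0.09) and MAP2K7 9.36, 17.3 and 6.99 CPM in siMAPK8_9 and 16.5, 14.7 and 16.8 CPM in control (adjusted p = 0.247). Without library 2 both passed it, at -0.50 and -0.95.

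Phosphatases that switch MAP kinases off were higher or did not pass the threshold. Of the MAP kinase phosphatases, 6 of 11 tested members were higher and 0 lower; the counts were 7 and 1 without library 2 and 6 and 0 after length correction. DUSP1, a nuclear phosphatase of JNK and p38, had 313, 321 and 345 CPM in siMAPK8_9 and 43.0, 44.4 and 44.5 CPM in control (log2 fold change 2.89 ± 0.11 (SE), adjusted p = 9.69e-05). DUSP4 had 38.8, 37.9 and 33.1 CPM in siMAPK8_9 and 10.0, 8.78 and 9.05 CPM in control (log2 fold change 1.98 ± 0.14 (SE), adjusted p = 0.000297), and DUSP10, which prefers JNK and p38, had 557, 368 and 619.9 CPM in siMAPK8_9 and 166, 165 and 172 CPM in control (log2 fold change 1.62 ± 0.20 (SE), adjusted p = 0.00145). All 3 were higher in every siMAPK8_9 library, library 2 being the lowest for DUSP10. DUSP5, a nuclear ERK phosphatase, rose by 1.16 ± 0.18 (adjusted p = 0.00246).

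Subunits of AP-1, the transcription factor that JNK activates, were higher or did not pass the threshold, apart from ATF7. Of the list, 8 of 17 tested members were higher and 1 lower; the counts were 9 and 3 without library 2 and 10 and 0 after length correction. ATF7, named for being the lower member, had a log2 fold change of -0.67 ± 0.15 (adjusted p = 0.011). JUN, whose product is the eponymous JNK substrate, had 278, 526 and 291 CPM in siMAPK8_9 and 264, 269 and 274 CPM in control. Libraries 1 and 3 lay just above the controls and library 2 far above them, and JUN did not pass the threshold (log2 fold change 0.44 ± 0.25 (SE), adjusted p = 0.18; 0.09 without library 2, adjusted p = 0.0927). After length correction JUN was at 0.61 (adjusted p = 0.0586). It passed the threshold only after length correction without library 2, of these settings, at 0.31 (adjusted p = 0.000852). JUNB had 89.8, 122 and 80.1 CPM in siMAPK8_9 and 29.0, 28.0 and 29.2 CPM in control (log2 fold change 1.77 ± 0.17 (SE), adjusted p = 0.000685), and JUND 27.5, 50.2 and 26.6 CPM in siMAPK8_9 and 13.7, 12.9 and 13.6 CPM in control (log2 fold change 1.39 ± 0.26 (SE), adjusted p = 0.00512). FOS had 11.6, 21.1 and 20.3 CPM in siMAPK8_9 and 2.41, 2.56 and 2.75 CPM in control (log2 fold change 2.78 ± 0.27 (SE), adjusted p = 0.000677), and MAFF, a small MAF protein, 36.6, 62.4 and 56.5 CPM in siMAPK8_9 and 6.69, 7.06 and 7.42 CPM in control (log2 fold change 2.88 ± 0.22 (SE), adjusted p = 0.000376). FOSL1 and ATF2 rose by 0.95 ± 0.10 and 0.85 ± 0.11 (adjusted p = 0.000783 and 0.00136). FOSL2 did not pass the threshold at -0.40 ± 0.19 (adjusted p = 0.118) or after length correction at 0.31 (adjusted p = 0.0893). Its log2 fold change without library 2 was -0.64 (adjusted p = 0.000113).

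Immediate-early genes and known AP-1 targets past the threshold lay in both directions. Of the immediate-early list, 11 of 20 tested members (55%) were higher and 2 (10%) lower. Of the JNK and AP-1 target list, 8 of 24 tested members (33.3%) were higher and 4 (16.7%) lower. Over all genes the shares were 26.8% and 26.1%, and without library 2 they were 33.6% and 37.5%. The immediate-early counts were 10 and 4 without library 2 and 11 and 2 after length correction, and the target counts 9 and 10 without library 2 and 9 and 5 after length correction and 6 and 6 under total counts. ZFP36, which destabilises cytokine mRNAs, rose to 63.4, 65.3 and 65.6 CPM, against 12.9, 11.3 and 12.8 CPM in the controls (log2 fold change 2.39 ± 0.12 (SE), adjusted p = 0.000134). CCN1, a matricellular protein, fell to 171, 302 and 198 CPM, against 723, 781 and 811 CPM (log2 fold change -1.78 ± 0.23 (SE), adjusted p = 0.0015). CCND1, the cyclin D1 gene that AP-1 induces, had 91.6, 253 and 132 CPM in siMAPK8_9 and 377, 404 and 413 CPM in control, with library 2 nearest the controls (log2 fold change -1.32 ± 0.35 (SE), adjusted p = 0.0184; -1.83 without library 2). PLAU, the urokinase protease, fell by 1.20 ± 0.16 (adjusted p = 0.00181). MYC did not pass the threshold, at 55.7, 86.4 and 73.1 CPM in siMAPK8_9 and 77.5, 83.0 and 88.2 CPM in control (adjusted p = 0.338). Its log2 fold change without library 2 was -0.36 (adjusted p = 0.0246). The AP-1 letters TGANTCA, searched on both strands in the 250 bases before each RefSeq start, occurred in 4 of 16 target list promoters, 4.01% of tested genes, 3.90% of higher genes, 2.90% of lower genes and 6.60% of all promoters.

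The stress transcription factors ATF4 and CHOP and most of their tested target genes were higher in siMAPK8_9. ATF4 is translated when kinases of the integrated stress response (ISR) phosphorylate the initiation factor eIF2 alpha, and it induces DDIT3, which encodes CHOP, along with genes for amino acid supply and tRNA charging. ATF4 had 755, 653 and 779 CPM in siMAPK8_9 and 145, 157 and 152 CPM in control (log2 fold change 2.27 ± 0.13 (SE), adjusted p = 0.000211). DDIT3 had 392, 299 and 416 CPM in siMAPK8_9 and 23.7, 23.7 and 23.6 CPM in control, the widest gap to the controls within the core ISR factors tested (log2 fold change 3.96 ± 0.16 (SE), adjusted p = 9.69e-05). For both genes the 3 libraries of each group lay close together and far from the other group. CEBPG, a C/EBP partner of ATF4, rose by 1.63 ± 0.12 on the log2 scale (adjusted p = 0.000314). PPP1R15A, the GADD34 subunit that dephosphorylates eIF2 alpha, had 411, 518 and 391 CPM in siMAPK8_9 and 133, 135 and 141 CPM in control (adjusted p = 0.000443). Over the sensors and core factors of the ISR, 10 of 16 tested members were higher and 3 lower; the counts were 10 and 3 without library 2 and 12 and 1 after length correction. DELE1, which relays mitochondrial stress to the ISR, had 40.2, 34.1 and 30.1 CPM in siMAPK8_9 and 31.8, 35.1 and 33.8 CPM in control (adjusted p = 0.766), and its protease OMA1 rose to 10.4, 7.30 and 11.9 CPM, against 3.81, 4.68 and 4.87 CPM in the controls (adjusted p = 0.0086). ATF5, another factor translated in the ISR, fell by 0.45 ± 0.13 (adjusted p = 0.0271). The other lower members were the eIF2 alpha kinases EIF2AK2 (-0.89 ± 0.14) and EIF2AK4 (-0.74 ± 0.11, adjusted p = 0.00311 and 0.00209; 0.11 and -0.10 after length correction), named after their values were seen.

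Among ATF4 and CHOP target genes, 37 of 55 tested members were higher and 1 lower, with a list median of 1.07 beside -0.05 over all genes; the counts were 37 and 8 without library 2 and 39 and 1 after length correction. The lower member was LARS1, the leucyl-tRNA synthetase (-0.33 ± 0.11, adjusted p = 0.0475; 0.20 after length correction), named after its value was seen. TRIB3, a pseudokinase that feeds back on ATF4 and AKT, had 416, 312 and 406 CPM in siMAPK8_9 and 49.9, 51.7 and 52.4 CPM in control (log2 fold change 2.88 ± 0.15 (SE), adjusted p = 0.000156). DDIT4, whose product REDD1 restrains mTORC1, had 489, 556 and 432 CPM in siMAPK8_9 and 34.1, 32.7 and 32.6 CPM in control (log2 fold change 3.89 ± 0.14 (SE), adjusted p = 9.69e-05). Neither gene had a siMAPK8_9 library below 5 times the highest control. ASNS, asparagine synthetase, had 171, 165 and 187 CPM in siMAPK8_9 and 45.9, 43.8 and 43.8 CPM in control (log2 fold change 1.97 ± 0.10 (SE), adjusted p = 0.000146). PHGDH, which opens the serine synthesis pathway, rose to 178, 177 and 199 CPM, against 61.4, 64.0 and 61.1 CPM in the controls (adjusted p = 0.000243). ATF3, a stress-induced repressor of the same bZIP family, had 169.9, 91.3 and 138 CPM in siMAPK8_9 and 12.2, 10.3 and 11.3 CPM in control (log2 fold change 3.55 ± 0.25 (SE), adjusted p = 0.000314). GDF15, a secreted stress cytokine of the TGF-beta superfamily, had 54.7, 118 and 72.1 CPM in siMAPK8_9 and 1.29, 1.84 and 1.20 CPM in control (log2 fold change 5.83 ± 0.37 (SE), adjusted p = 0.000269). For GDF15 library 2 was the highest of the 3, for ATF3 the lowest. SESN2, which senses leucine for mTORC1, also rested in part on library 2, with 38.8, 79.4 and 38.8 CPM in siMAPK8_9 and 22.0, 21.8 and 23.5 CPM in control, and its log2 fold change was 1.24 with that library and 0.80 without it. CHAC1, a glutathione-degrading enzyme, rose by 1.38 ± 0.20 (adjusted p = 0.00211), but not past the threshold after length correction (0.73, adjusted p = 0.0619). FGF21, another secreted target of ATF4, stayed under the filter at 0.146, 0 and 1.3 CPM in siMAPK8_9 and 0.0498, 0 and 0.0250 CPM in control.

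**Figure D2:**
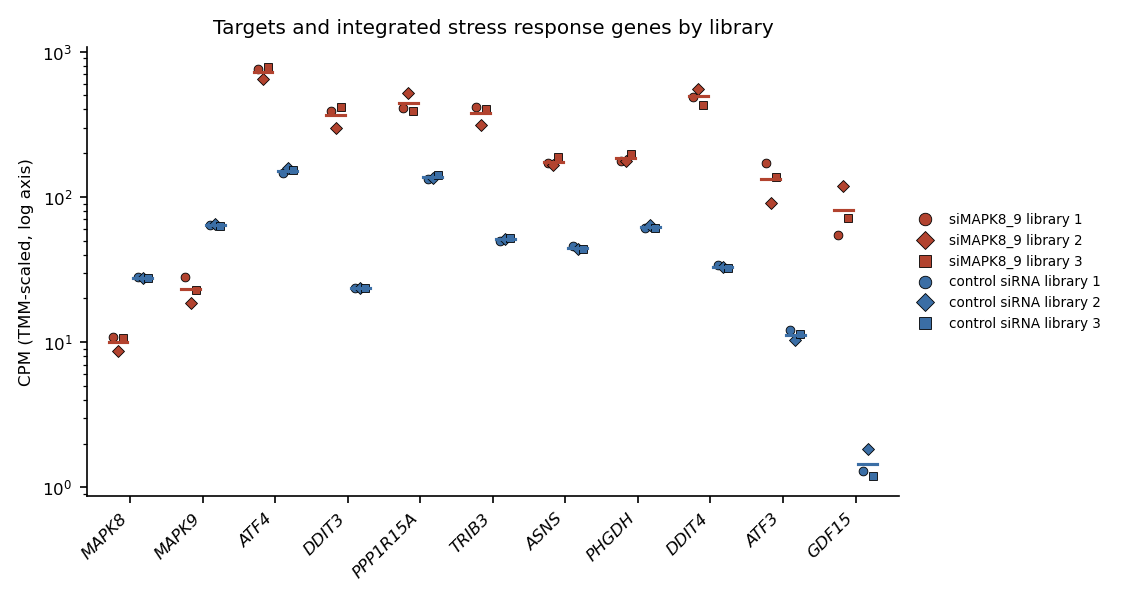
CPM per library (TMM-scaled, log axis) of the knockdown targets and of integrated stress response genes; points are libraries and short lines group means, siMAPK8_9 at the left of each pair. MAPK8 and MAPK9 are lower in all 3 siMAPK8_9 libraries, and the other 9 genes are higher in all 3 than in any control library.

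The ATF4 target list can be set beside its promoters. ATF4 with a C/EBP partner is known to bind the C/EBP-ATF response element, searched here as TGATGNAA on both strands in the 250 bases before each RefSeq start (GRCh38.p14). The letters occurred in 6 of the 44 tested list members with a promoter in the table (13.6%), against 148 of 10767 tested genes (1.37%) and 870 of all 27305 promoters (3.19%). The windows around these matches, and around that of PPP1R15B, a list member of the ISR factors, are shown because they place the element beside the change of each gene. They read 5′ to 3′ on the gene's strand, and capitals mark the match.
ASNS, chr7:97872439-97872506, minus strand: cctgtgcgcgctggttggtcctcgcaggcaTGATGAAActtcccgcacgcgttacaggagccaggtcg
CHAC1, chr15:40953232-40953299, plus strand: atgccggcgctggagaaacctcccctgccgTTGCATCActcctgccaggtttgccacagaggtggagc
ATF3, chr1:212565186-212565253, plus strand: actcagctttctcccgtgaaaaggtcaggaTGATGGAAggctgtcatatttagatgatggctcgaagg
AARS1, chr16:70289656-70289723, minus strand: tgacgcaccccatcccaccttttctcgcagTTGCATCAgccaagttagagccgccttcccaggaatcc
MTHFD1L, chr6:150866327-150866394, plus strand: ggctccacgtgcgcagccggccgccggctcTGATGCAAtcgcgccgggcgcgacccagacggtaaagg
IARS1, chr9:92293698-92293740, minus strand: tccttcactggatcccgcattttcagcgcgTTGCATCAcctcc
PPP1R15B, chr1:204412007-204412067, minus strand: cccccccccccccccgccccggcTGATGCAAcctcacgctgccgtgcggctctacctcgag
The match began 68 bases before the start in ASNS, 209 in CHAC1, 191 in ATF3, 187 in AARS1, 129 in MTHFD1L, 13 in IARS1 and 227 in PPP1R15B. ASNS, CHAC1, ATF3 and AARS1, the alanyl-tRNA synthetase (0.72 ± 0.19, adjusted p = 0.0174), rose. MTHFD1L of mitochondrial folate metabolism (0.23 ± 0.10, adjusted p = 0.093), IARS1, the isoleucyl-tRNA synthetase (0.07 ± 0.10, adjusted p = 0.609), and PPP1R15B, the constitutive partner of the eIF2 alpha phosphatase (-0.02 ± 0.10, adjusted p = 0.863), did not pass the threshold. AARS1, MTHFD1L, IARS1 and PPP1R15B were named for these letters. Over all genes past the threshold the letters occurred in 1.61% of those higher and 1.31% of those lower.

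Genes of the endoplasmic reticulum branches of the unfolded protein response lay in both directions. Among XBP1 and ATF6 target genes, 9 of 25 tested members (36%) were higher and 5 (20%) lower. Over all genes the shares were 26.8% and 26.1%, and without library 2 they were 33.6% and 37.5%. The list counts were 9 and 13 without library 2, 6 and 2 after length correction and 3 and 6 under total counts. XBP1 rose to 235, 198 and 279 CPM, against 69.2, 64.9 and 68.9 CPM in the controls (log2 fold change 1.81 ± 0.15 (SE), adjusted p = 0.000415). HERPUD1, which helps clear misfolded proteins from the reticulum, had 292, 390.2 and 283 CPM in siMAPK8_9 and 86.4, 83.8 and 84.0 CPM in control (log2 fold change 1.93 ± 0.15 (SE), adjusted p = 0.000391). DNAJB9, a co-chaperone of BiP, rose by 1.11 ± 0.13 (adjusted p = 0.00113). HSPA5, which encodes BiP itself, had 1770, 4042 and 2175 CPM in siMAPK8_9 and 1336, 1335 and 1288 CPM in control: library 2 held the highest level, and the log2 fold change was 1.01 with it (adjusted p = 0.0328) and 0.59 without it. MANF, a secreted reticulum stress factor, rose by 1.62 ± 0.10, but after length correction its value was 0.50 (adjusted p = 0.071). Mitochondrial chaperones and proteases also lay in both directions: 6 of 15 tested members (40%) were higher and 3 (20%) lower. The counts were 8 and 3 without library 2, 7 and 4 after length correction and 1 and 5 under total counts. Of them, HSPA9, the mortalin chaperone of protein import, rose to 1200, 1020 and 1214 CPM, against 542, 545 and 566 CPM in the controls (adjusted p = 0.00146), and CLPP, the matrix protease, rose to 79.9, 44.6 and 79.3 CPM, against 26.2, 29.8 and 26.6 CPM (adjusted p = 0.00444). SPG7 and AFG3L2, which form the m-AAA protease of the inner membrane, fell by 0.89 ± 0.16 and 0.83 ± 0.16 (adjusted p = 0.00435 and 0.00501).

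Nearly all tested NRF2 target genes were higher in siMAPK8_9. NRF2 (NFE2L2) is the transcription factor of the antioxidant response, held back by KEAP1 until oxidants or electrophiles release it. Of the list, 23 of 24 tested members were higher and 1 lower, with a median of 1.27; the counts were 23 and 1 without library 2 and 21 and 0 after length correction. The lower member was ABCC1, a glutathione conjugate exporter (-0.73 ± 0.23, adjusted p = 0.035), named after its value was seen. OSGIN1, an oxidative stress-induced growth inhibitor, had 56.2, 50.8 and 58.8 CPM in siMAPK8_9 and 4.68, 5.47 and 5.80 CPM in control (log2 fold change 3.38 ± 0.15 (SE), adjusted p = 9.69e-05). AKR1B10, an aldo-keto reductase, had 21.7, 16.2 and 17.9 CPM in siMAPK8_9 and 1.74, 1.49 and 1.72 CPM in control (log2 fold change 3.48 ± 0.20 (SE), adjusted p = 0.000211). Both sets of 3 siMAPK8_9 values were narrow and above every control. AKR1C1, its relative that reduces steroids and carbonyls, rose by 2.24 ± 0.13 (adjusted p = 0.00022). TXNRD1, thioredoxin reductase, had 871, 1023 and 936 CPM in siMAPK8_9 and 296, 303 and 293 CPM in control (log2 fold change 1.66 ± 0.13 (SE), adjusted p = 0.000357). HMOX1, the haem oxygenase, differed among the siMAPK8_9 libraries, with 1994, 833 and 1924 CPM in siMAPK8_9 and 365, 423 and 406 CPM in control (log2 fold change 1.99 ± 0.34 (SE), adjusted p = 0.00356). AKR1C1 has close relatives in the same family, and reads shared among them may have been split by the authors' counting.

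The antioxidant response element was searched as TGACNNNGC on both strands of the same windows, a motif chosen after the counts had been seen. It occurred in 4 of 16 tested NRF2 list members with a promoter (25%), against 11.8% of tested genes and 11.0% of all promoters; it can overlap the AP-1 letters TGANTCA, as it does in ME1. The windows are shown for the list members that hold it.
TXNRD1, chr12:104215650-104215718, plus strand: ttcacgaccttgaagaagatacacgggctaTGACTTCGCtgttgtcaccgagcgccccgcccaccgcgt
GCLM, chr1:93909431-93909494, minus strand: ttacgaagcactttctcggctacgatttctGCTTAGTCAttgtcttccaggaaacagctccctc
PGD, chr1:10398833-10398901, plus strand: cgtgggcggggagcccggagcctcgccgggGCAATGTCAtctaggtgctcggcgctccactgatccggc
ME1, chr6:83431150-83431218, minus strand: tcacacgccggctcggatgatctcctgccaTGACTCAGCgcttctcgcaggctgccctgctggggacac
GCLM, the modifier subunit of glutathione synthesis, rose by 0.68 ± 0.13 (adjusted p = 0.00467), PGD of the pentose phosphate pathway by 0.86 ± 0.14 (adjusted p = 0.00335) and ME1, the cytosolic malic enzyme, by 0.63 ± 0.16 (adjusted p = 0.0168). These 3 genes were named for their promoters, and under total counts the values of GCLM and ME1 were -0.02 and -0.08.

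Cytokine genes past the threshold were all higher with all 6 libraries. Of the cytokine, chemokine and NF-kB list, 16 of 27 tested members were higher and 0 lower; the counts were 17 and 5 of 28 without library 2 and 15 and 1 after length correction. CXCL8, the neutrophil chemokine interleukin 8, had 825, 2918 and 1160 CPM in siMAPK8_9 and 111, 114 and 121 CPM in control. CSF2, which encodes GM-CSF, had 41.1, 177 and 67.8 CPM in siMAPK8_9 and 4.85, 4.82 and 4.55 CPM in control. IL24, a cytokine of the interleukin 10 family, had 6.58, 15.8 and 33.5 CPM in siMAPK8_9 and 0.522, 0.622 and 0.4997 CPM in control. The siMAPK8_9 libraries lay above every control for all 3 genes but spread several-fold among themselves, library 2 being highest for CXCL8 and CSF2. Their log2 fold changes were 3.83 ± 0.50, 4.34 ± 0.56 and 5.07 ± 0.63 (adjusted p = 0.00156, 0.00154 and 0.00136), and 3.11, 3.52 and 5.17 without library 2. IL6 had 36.0, 81.2 and 25.5 CPM in siMAPK8_9 and 12.5, 12.0 and 13.5 CPM in control (adjusted p = 0.00808), and after length correction its value was 1.09 (adjusted p = 0.142). NFKBIA, the inhibitor that NF-kB itself induces, rose by 1.31 ± 0.16 (adjusted p = 0.0012), and RELB, a subunit of NF-kB, by 1.70 ± 0.19 (adjusted p = 0.00107). ICAM1, an adhesion molecule for leukocytes, had 33.2, 42.7 and 59.5 CPM in siMAPK8_9 and 12.7, 11.8 and 13.2 CPM in control (log2 fold change 1.84 ± 0.22 (SE), adjusted p = 0.00127). CCL5 rose by 1.71 ± 0.19 (adjusted p = 0.00105), but after length correction its value was 0.87 (adjusted p = 0.0536). LIF, a glial survival cytokine, had 11.6, 20.02 and 19.8 CPM in siMAPK8_9 and 12.5, 12.6 and 13.9 CPM in control and did not pass the threshold (adjusted p = 0.17).

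Most interferon-stimulated genes past the threshold were lower. Of the list, 6 of 35 tested members were higher and 15 lower, and the counts were 8 and 17 without library 2 and 3 and 10 after length correction. DDX60, an antiviral helicase, had 8.63, 8.99 and 9.59 CPM in siMAPK8_9 and 34.9, 29.3 and 34.5 CPM in control (log2 fold change -1.86 ± 0.14 (SE), adjusted p = 0.000357), and OAS3, an oligoadenylate synthetase, had 28.5, 28.8 and 20.3 CPM in siMAPK8_9 and 80.8, 76.3 and 78.5 CPM in control (log2 fold change -1.59 ± 0.15 (SE), adjusted p = 0.000685). IRF1 and XAF1 went the other way: IRF1, an interferon regulatory factor, rose by 0.90 ± 0.10 (adjusted p = 0.000992), and XAF1, an antagonist of apoptosis inhibitors, by 1.44 ± 0.16 (adjusted p = 0.000994).

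Of the inhibitors of cyclin-dependent kinases, 5 of 6 tested members were higher and 1 lower; the counts were 5 and 1 without library 2 and 3 and 1 after length correction and 2 and 1 under total counts. CDKN1A, which encodes p21, had 107, 160.3 and 77.7 CPM in siMAPK8_9 and 14.1, 13.8 and 14.4 CPM in control (log2 fold change 3.03 ± 0.27 (SE), adjusted p = 0.000514). CDKN1B, which encodes p27, had 17.7, 19.7 and 14.8 CPM in siMAPK8_9 and 9.13, 8.18 and 7.87 CPM in control (log2 fold change 1.06 ± 0.17 (SE), adjusted p = 0.00276). CDKN2C, which encodes p18, was the lower member (-0.54 ± 0.15, adjusted p = 0.0203), named after its value was seen. Of the G1 to S list, 7 of 42 tested members were higher and 21 lower, and of the G2 and M list, 4 of 45 tested members were higher and 24 lower. For G1 to S the counts were 11 and 23 without library 2 and 1 and 21 after length correction; for G2 and M they were 12 and 25 without library 2 and 1 and 19 after length correction. CDK6, a partner of D cyclins, had 63.1, 66.5 and 87.2 CPM in siMAPK8_9 and 318, 314 and 312 CPM in control (log2 fold change -2.13 ± 0.15 (SE), adjusted p = 0.000328). UHRF1, which maintains DNA methylation behind the replication fork, had 29.1, 37.1 and 25.5 CPM in siMAPK8_9 and 128, 133 and 131 CPM in control (log2 fold change -2.08 ± 0.15 (SE), adjusted p = 0.000357). CENPE, a kinetochore motor, had 11.6, 14.1 and 10.7 CPM in siMAPK8_9 and 61.7, 61.0 and 62.0 CPM in control (log2 fold change -2.33 ± 0.14 (SE), adjusted p = 0.00022). In each of these 3 genes the highest siMAPK8_9 library held less than 1 in 3 of the lowest control's level. CCNE2 fell by 1.45 ± 0.15, ANLN of the cleavage furrow by 1.78 ± 0.15 and the checkpoint kinase BUB1B by 1.05 ± 0.10 (adjusted p = 0.000818, 0.000429 and 0.000525). These are bulk values, in which fewer cells of a kind and less RNA per cell cannot be told apart.

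Some genes known for growth arrest and cell death were named singly. GADD45A, a DNA damage and stress gene on the ATF4 list, had 747, 392 and 769 CPM in siMAPK8_9 and 92.3, 103 and 102 CPM in control (log2 fold change 2.68 ± 0.27 (SE), adjusted p = 0.000783). MDM2, a ubiquitin ligase, did not pass the threshold, at 32.3, 49.3 and 19.5 CPM in siMAPK8_9 and 45.6, 46.6 and 43.7 CPM in control (adjusted p = 0.289). Its log2 fold change without library 2 was -0.78 (adjusted p = 0.00529). In the BCL2 family, 6 of 14 tested members (42.9%) were higher and 1 (7.14%) lower, beside 26.8% and 26.1% of all genes. The counts were 6 and 2 without library 2. They were 5 and 2 after length correction, where 21.7% of all genes were higher and 16.3% lower. BBC3, which encodes the pro-apoptotic PUMA, rose to 6.29, 11.7 and 5.52 CPM, against 1.42, 1.44 and 1.57 CPM in the controls (log2 fold change 2.43 ± 0.34 (SE), adjusted p = 0.00198). BCL2, the anti-apoptotic founder of the family, had 2.63, 2.26 and 0.487 CPM in siMAPK8_9 and 12.1, 12.1 and 12.4 CPM in control (log2 fold change -2.69 ± 0.43 (SE), adjusted p = 0.00283). BAD, a pro-apoptotic BH3-only member, rose by 1.63 ± 0.23 (adjusted p = 0.00189), and its value after length correction was 0.47 (adjusted p = 0.0157). BAX rose by 1.20 ± 0.16, but after length correction its value was -0.0017 (adjusted p = 0.99).

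Of the glycolysis and hypoxia list, 21 of 35 tested members were higher and 0 lower, with a median of 1.01; the counts were 23 and 7 without library 2 and 23 and 0 after length correction. ANKRD37, a hypoxia-induced ankyrin protein, had 30.1, 39.9 and 36.7 CPM in siMAPK8_9 and 2.56, 2.86 and 2.67 CPM in control (log2 fold change 3.72 ± 0.17 (SE), adjusted p = 0.000105). EGLN3, the prolyl hydroxylase PHD3 that marks HIF for destruction, had 108, 198 and 115 CPM in siMAPK8_9 and 18.6, 18.4 and 18.4 CPM in control (log2 fold change 2.93 ± 0.25 (SE), adjusted p = 0.000482). BNIP3 and BNIP3L, receptors for the removal of mitochondria, rose by 2.04 ± 0.13 and 1.43 ± 0.10 (adjusted p = 0.000225 and 0.000334). A pair of lipid storage genes was among the 14 highest. PLIN2, the coat protein of lipid droplets, had 51.2, 72.9 and 36.2 CPM in siMAPK8_9 and 2.31, 2.34 and 2.60 CPM in control (log2 fold change 4.47 ± 0.29 (SE), adjusted p = 0.000273). G0S2, an inhibitor of adipose triglyceride lipase, had 65.8, 81.8 and 52.8 CPM in siMAPK8_9 and 3.31, 3.08 and 2.62 CPM in control (log2 fold change 4.48 ± 0.22 (SE), adjusted p = 0.00014). In arginine and polyamine metabolism, 7 of 15 tested members were higher and 1 lower; the counts were 10 and 1 without library 2 and 5 and 3 after length correction and 4 and 4 under total counts. ARG2, the mitochondrial arginase, had 63.8, 90.2 and 62.6 CPM in siMAPK8_9 and 2.61, 2.14 and 1.87 CPM in control (log2 fold change 5.03 ± 0.23 (SE), adjusted p = 0.00012), and ASS1, which makes argininosuccinate, rose by 1.86 ± 0.20 (adjusted p = 0.000918). For PLIN2, G0S2 and ARG2 library 2 was the highest of the siMAPK8_9 libraries and every one lay over 10 times the highest control.

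Of the mTORC1 and nutrient regulators, 9 of 28 tested members were higher and 9 lower, or 32.1% each way, near the 26.8% and 26.1% of all genes, against 3 and 14 under total counts; the counts were 11 and 14 without library 2 and 9 and 2 after length correction. RRAGA, a GTPase that brings mTORC1 to lysosomes, had 278, 296 and 316 CPM in siMAPK8_9 and 53.2, 53.8 and 55.1 CPM in control (log2 fold change 2.46 ± 0.11 (SE), adjusted p = 9.69e-05). EIF4EBP1, the translation repressor that mTORC1 inactivates, rose by 2.19 ± 0.24 (adjusted p = 0.000921), and RPTOR, the scaffold of mTORC1, fell by 1.16 ± 0.16 (adjusted p = 0.002). Length correction put RRAGA at 1.83, EIF4EBP1 at 0.94 and RPTOR at -0.40. Of the autophagy list, 16 of 28 tested members were higher and 3 lower; the counts were 19 and 5 without library 2 and 18 and 1 after length correction. GABARAPL1, which coats autophagosomes, had 175, 153 and 192 CPM in siMAPK8_9 and 46.7, 40.9 and 40.6 CPM in control (log2 fold change 2.02 ± 0.13 (SE), adjusted p = 0.000246). SQSTM1, the cargo receptor p62 and a target of both ATF4 and NRF2, had 3371, 2297 and 3293 CPM in siMAPK8_9 and 914, 925 and 940.3 CPM in control (log2 fold change 1.69 ± 0.20 (SE), adjusted p = 0.00114). OPTN, another cargo receptor, rose by 1.52 ± 0.16 (adjusted p = 0.000807). Of the heat shock list, 10 of 20 tested members were higher and 3 lower, against 2 and 7 under total counts; the counts were 12 and 5 without library 2 and 8 and 2 after length correction. HSPB1, the small heat shock protein HSP27, had 679, 346 and 665 CPM in siMAPK8_9 and 155, 158 and 153 CPM in control (log2 fold change 1.86 ± 0.26 (SE), adjusted p = 0.00203), and DNAJB4 had 161, 147 and 139 CPM in siMAPK8_9 and 321, 311 and 315 CPM in control (log2 fold change -1.08 ± 0.11 (SE), adjusted p = 0.000685). With length correction HSPB1 was at 0.54 and DNAJB4 at -1.05. Of the cholesterol synthesis list, 10 of 23 tested members were higher and 3 lower, against 1 and 3 under total counts; the counts were 11 and 9 without library 2 and 5 and 2 after length correction. FDFT1, the squalene synthase, rose by 1.37 ± 0.13 (adjusted p = 0.000685), and LSS, the lanosterol synthase, fell by 1.47 ± 0.16 (adjusted p = 0.000992).

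Genes with short transcripts that make up ribosomes and the respiratory chain were nearly all higher, fewer of them after length correction. All 52 tested cytosolic ribosomal protein genes were higher, with a median of 1.61; the counts were 52 and 0 without library 2 and 28 and 0 after length correction, where the median was 0.30, and 40 and 6 after length correction without library 2. Of 40 nuclear genes of oxidative phosphorylation, 38 were higher and 0 lower at a median of 1.41; the counts were 39 and 0 without library 2 and 17 and 1 after length correction, where the median was 0.24, and 22 and 7 after length correction without library 2. Of the 13 mitochondrially encoded genes 12 were higher and 0 lower; the counts were 13 and 0 without library 2 and 10 and 0 after length correction. MT-COX2 had 133950, 19382 and 128030 CPM in siMAPK8_9 and 1782, 1786 and 1776 CPM in control (log2 fold change 5.72 ± 0.82 (SE), adjusted p = 0.00209), so that library 2 stood apart from libraries 1 and 3. The mitochondrial reads share a polycistronic origin, and overlapping pairs such as MT-ATP6 and MT-ATP8 share bases.

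No collagen was higher in siMAPK8_9. Of the list, 0 of 18 tested members were higher and 11 lower, with a median of -1.55; the counts were 0 and 17 without library 2 and 0 and 7 after length correction. COL4A1 of basement membranes had 17.7, 38.7 and 16.7 CPM in siMAPK8_9 and 133, 131 and 136 CPM in control (log2 fold change -2.42 ± 0.33 (SE), adjusted p = 0.00175). COL5A1 had 142, 394 and 179.7 CPM in siMAPK8_9 and 1313, 1312 and 1373 CPM in control (log2 fold change -2.48 ± 0.39 (SE), adjusted p = 0.00273), and COL1A2 2826, 5402 and 3673 CPM in siMAPK8_9 and 11479, 11418 and 11668 CPM in control (log2 fold change -1.54 ± 0.29 (SE), adjusted p = 0.00504). In these 3 collagens library 2 was nearest to the controls without reaching them. Of the matrix glycoproteins and proteoglycans, 3 of 29 tested members were higher and 15 lower; the counts were 3 and 24 of 30 without library 2 and 3 and 4 after length correction. THBS1, thrombospondin 1, had 375, 1124 and 331 CPM in siMAPK8_9 and 3232, 3509 and 3492 CPM in control (log2 fold change -2.48 ± 0.49 (SE), adjusted p = 0.00618). NID1, which links laminin to collagen IV, fell by 1.54 ± 0.24 (adjusted p = 0.00257). Of the integrins and focal adhesion genes, 2 of 29 tested members were higher and 14 lower; the counts were 3 and 22 without library 2 and 5 and 6 after length correction. FLNC, an actin crosslinker, had 144, 158 and 122 CPM in siMAPK8_9 and 897, 889 and 948 CPM in control (log2 fold change -2.69 ± 0.15 (SE), adjusted p = 0.000183), and TLN2, a talin, fell by 1.87 ± 0.16 (adjusted p = 0.000467). After length correction the lower members of the glycoprotein and adhesion lists were 4 and 6 of 29, while 16.3% of all genes were lower. Of the matrix proteases and their inhibitors, 2 of 21 tested members were higher and 8 lower; the counts were 2 and 15 without library 2 and 3 and 8 after length correction. MMP1, interstitial collagenase, was among the higher ones, with 9.07, 34.2 and 78.2 CPM in siMAPK8_9 and 4.33, 4.00 and 4.45 CPM in control (log2 fold change 3.24 ± 0.69 (SE), adjusted p = 0.00798), and was named after its value was seen.

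Contractile genes turned with scaling: 12 of 16 tested members were higher and 3 lower with TMM, against 2 and 3 with total counts; the counts were 13 and 3 without library 2 and 9 and 2 after length correction. TAGLN2, a small actin-binding protein, had 814, 701 and 860.5 CPM in siMAPK8_9 and 417, 422 and 433 CPM in control (log2 fold change 0.90 ± 0.13 (SE), adjusted p = 0.0021), and the long myosin heavy chains MYH9 and MYH10 fell by 1.48 ± 0.22 and 2.25 ± 0.30 (adjusted p = 0.00219 and 0.00175). After length correction TAGLN2 was at 0.10 (adjusted p = 0.404).

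Genes of the TGF-beta and Wnt pathways past the threshold were mostly lower. Over all genes 26.8% were higher and 26.1% lower. Those shares were 33.6% and 37.5% without library 2, and 21.7% and 16.3% after length correction. Of the TGF-beta list, 3 of 24 tested members were higher and 10 lower; the counts were 4 and 18 without library 2 and 3 and 6 after length correction. SMAD6, an inhibitory SMAD, had 16.4, 19.9 and 12.998 CPM in siMAPK8_9 and 109.9, 114 and 109 CPM in control (log2 fold change -2.74 ± 0.17 (SE), adjusted p = 0.000228), and TGIF1, a corepressor of SMADs, had 251, 173 and 291 CPM in siMAPK8_9 and 45.7, 43.1 and 41.7 CPM in control (log2 fold change 2.45 ± 0.20 (SE), adjusted p = 0.000429). SMAD2 rose by 0.99 ± 0.14 (adjusted p = 0.00184). Of the Wnt list, 0 of 29 tested members were higher and 16 lower; the counts were 0 and 24 without library 2 and 1 and 10 of 28 after length correction. WNT5B, a ligand, had 7.75, 27.6 and 13.3 CPM in siMAPK8_9 and 92.9, 108 and 107 CPM in control (log2 fold change -2.60 ± 0.41 (SE), adjusted p = 0.00287), and FZD4, a receptor, had 27.2, 23.5 and 19.2 CPM in siMAPK8_9 and 69.6, 61.5 and 66.9 CPM in control (log2 fold change -1.50 ± 0.15 (SE), adjusted p = 0.000754). Of the YAP and TAZ list, 5 of 28 tested members were higher and 13 lower; the counts were 5 and 19 without library 2 and 6 and 6 after length correction. TEAD1, a DNA-binding partner of YAP, fell by 1.56 ± 0.12 and its relative TEAD3 rose by 1.11 ± 0.14 (adjusted p = 0.000377 and 0.00131). Length correction put TEAD1 at -0.61 and TEAD3 at 1.19. In the Notch list, 3 of 15 tested members (20%) were higher and 5 (33.3%) lower, near the shares of all genes. The counts were 5 and 6 of 16 without library 2 and 4 and 3 after length correction. NOTCH2 had 91.2, 161 and 94.4 CPM in siMAPK8_9 and 371, 381 and 375 CPM in control (log2 fold change -1.70 ± 0.23 (SE), adjusted p = 0.00188), and LFNG, which glycosylates Notch, had 1.17, 4.24 and 1.79 CPM in siMAPK8_9 and 18.2, 19.7 and 18.5 CPM in control (log2 fold change -2.82 ± 0.41 (SE), adjusted p = 0.00209). HEY1, a Notch target, rose by 1.04 ± 0.21 (adjusted p = 0.00649). With length correction NOTCH2 was at -0.67, LFNG at -3.04 and HEY1 at 0.76. Among receptor tyrosine kinases and ligands, 3 of 26 tested members were higher and 11 lower; the counts were 5 and 17 without library 2 and 3 and 3 after length correction. NRG1, the neuregulin ligand, had 55.0, 45.2 and 58.3 CPM in siMAPK8_9 and 108, 114 and 115 CPM in control (log2 fold change -1.09 ± 0.12 (SE), adjusted p = 0.00106), which was -0.36 after length correction (adjusted p = 0.136). VEGFB rose by 1.36 ± 0.14 (adjusted p = 0.000697).

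**Figure D3:**
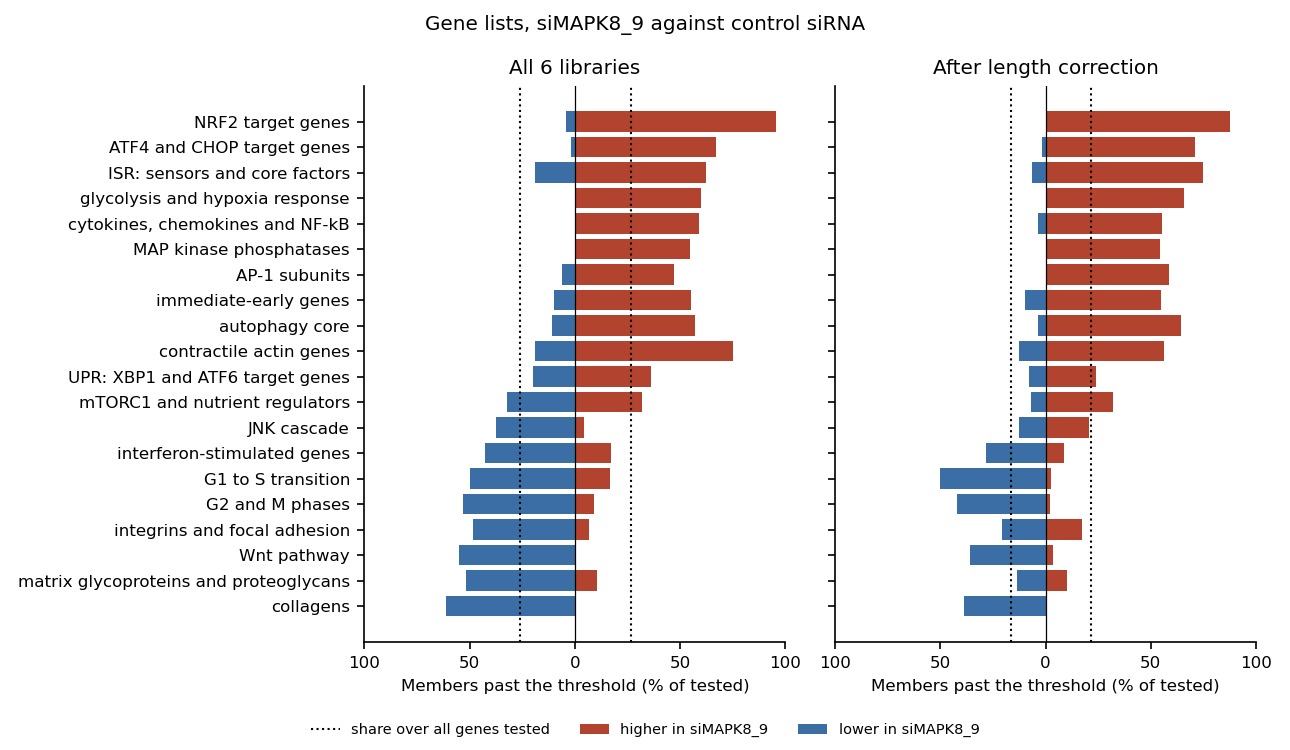
Share of tested members past the threshold in 20 gene lists, higher in siMAPK8_9 to the right and lower to the left, with all 6 libraries (left panel) and after length correction (right panel); dotted lines are the shares over all genes, 26.8% higher and 26.1% lower, and 21.7% and 16.3%. NRF2 and ATF4 target genes reach far past the line of higher genes in both panels, and the collagens and Wnt genes have no higher member with all 6 libraries.

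The remaining genes with the highest fold changes came from several groups. PNRC1, a nuclear receptor coactivator, had the smallest adjusted p of all genes tested with all 6 libraries, at 224, 233 and 232 CPM in siMAPK8_9 and 13.98, 14.5 and 12.7 CPM in control (log2 fold change 4.06 ± 0.11 (SE), adjusted p = 4.49e-05). CXCR4, the receptor of the chemokine CXCL12, had 12.1, 49.3 and 32.8 CPM in siMAPK8_9 and 1.92, 1.49 and 1.37 CPM in control (log2 fold change 4.31 ± 0.52 (SE), adjusted p = 0.00128). MT1E, a metallothionein, had 151, 99.2 and 137 CPM in siMAPK8_9 and 7.84, 8.83 and 9.39 CPM in control (log2 fold change 3.89 ± 0.19 (SE), adjusted p = 0.000146), and EIF3CL, a near copy of the initiation factor gene EIF3C, had 129.6, 20.1 and 114 CPM in siMAPK8_9 and 2.79, 1.14 and 1.399 CPM in control (log2 fold change 5.61 ± 0.80 (SE), adjusted p = 0.00206). Reads of both can be shared with near-identical genes and the split is uncertain, and EIF3CL was lowest in library 2. Length correction put MT1E at 2.07 and EIF3CL at 5.55.

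The 14 lowest genes are given next. XKR4, of a family of phospholipid scramblases, had 0, 0.0471 and 0.325 CPM in siMAPK8_9 and 13.1, 14.4 and 13.7 CPM in control, near or under the level that a count of 0 allows in each siMAPK8_9 library (adjusted p = 0.000347). PCDH19, a protocadherin, had 0.293, 0.0471 and 1.95 CPM in siMAPK8_9 and 12.9, 11.8 and 11.6 CPM in control (adjusted p = 0.00549). KDR, the VEGF receptor 2, had 1.46, 0.565 and 0.650 CPM in siMAPK8_9 and 13.1, 12.6 and 11.6 CPM in control (adjusted p = 0.000543). FAT3, an atypical cadherin, had 2.34, 6.59 and 2.44 CPM in siMAPK8_9 and 49.4, 49.0 and 48.5 CPM in control (adjusted p = 0.000869). These 4 stayed lower in each siMAPK8_9 library by at least 5-fold against the lowest control, as did LZTS1, a leucine zipper protein, at 1.13 to 3.37 CPM in siMAPK8_9 and 23.4 to 24.5 CPM in control. ZNF469, a zinc finger protein, had 5.27, 9.84 and 10.2 CPM in siMAPK8_9 and 95.05, 97.5 and 105 CPM in control, and HMCN1, the matrix protein hemicentin, 1.46, 2.45 and 0 CPM in siMAPK8_9 and 23.0, 21.1 and 23.1 CPM in control (adjusted p = 0.000302 and 0.00269). The other genes were KIAA1549L (1.79 to 6.69 CPM in siMAPK8_9 and 53.6 to 56.3 CPM in control), PI15, a trypsin inhibitor (2.93 to 4.00 CPM in siMAPK8_9 and 34.4 to 48.0 CPM in control), the kinase SGK3 (0 to 2.34 CPM in siMAPK8_9 and 12.5 to 14.4 CPM in control), the lysophosphatidic acid receptor LPAR4 (1.04 to 3.74 CPM in siMAPK8_9 and 21.4 to 24.4 CPM in control), the guanylate cyclase subunit GUCY1A2 (1.17 to 4.06 CPM in siMAPK8_9 and 21.0 to 21.5 CPM in control), the neural adhesion molecule LSAMP (0.732 to 2.87 CPM in siMAPK8_9 and 21.3 to 22.0 CPM in control) and FNDC1 (2.63 to 5.79 CPM in siMAPK8_9 and 34.1 to 38.7 CPM in control). Both sets of 14 were chosen by rule for their fold change and for groups that do not overlap.

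Markers of Müller glia were partly present. Of them 5 of 19 tested members were higher and 3 lower, where 26.8% of all genes were higher and 26.1% lower (under total counts 3 and 6); the counts were 5 and 5 without library 2 and 5 and 2 after length correction. VIM, vimentin, had 9383, 6319 and 9741 CPM in siMAPK8_9 and 4184, 4206 and 4312 CPM in control (log2 fold change 1.00 ± 0.24 (SE), adjusted p = 0.0117). GLUL, glutamine synthetase, had 261, 277 and 282 CPM in siMAPK8_9 and 201, 190.1 and 191 CPM in control (log2 fold change 0.49 ± 0.10 (SE), adjusted p = 0.00657), but at total-count scaling its log2 fold change was -0.18. SOX9 had 51.9, 106 and 50.4 CPM in siMAPK8_9 and 79.7, 75.2 and 75.9 CPM in control and did not pass the threshold (adjusted p = 0.72); without library 2 it was -0.58 (adjusted p = 0.000181). SOX2, a factor of glia and progenitors, had 4.54, 7.77 and 3.90 CPM in siMAPK8_9 and 15.8, 16.8 and 14.9 CPM in control (log2 fold change -1.50 ± 0.27 (SE), adjusted p = 0.00437). NFIX, a glial factor, fell by 2.15 ± 0.25, and CRYAB and PRDX6 rose by 2.14 ± 0.38 and 1.74 ± 0.23 (adjusted p = 0.00113, 0.00412 and 0.0017). SLC1A3 of the same list, named after its value was seen, was lower in each siMAPK8_9 library than in any control. In CPM of nuclear-encoded counts it had 17.1, 58.9 and 25.6 in siMAPK8_9 and 88.1, 83.0 and 78.8 in control. RLBP1, a defining gene of mature Müller glia, was at 0.439, 0 and 0.163 CPM in siMAPK8_9 and 0, 0 and 0 CPM in control, at or near the floor. GFAP, the marker of reactive glia, was at 0.585, 0.565 and 1.2998 CPM in siMAPK8_9 and 0.149, 0.348 and 0.475 CPM in control and did not pass the threshold (adjusted p = 0.144). Of the gliosis list, 10 of 27 tested members (37.0%) were higher and 7 (25.9%) lower, beside 26.8% and 26.1% of all genes. Under total counts they were 7 and 7. The counts were 10 and 12 without library 2, where 33.6% and 37.5% of all genes were higher and lower. They were 6 and 4 with length correction, near the 21.7% and 16.3% of all genes. S100A6, a calcium-binding protein of reactive glia, rose by 1.73 ± 0.21, but after length correction its value was -0.04 (adjusted p = 0.826). STAT3, which drives gliosis, did not pass the threshold at 57.5, 100.4 and 74.9 CPM in siMAPK8_9 and 100.2, 103 and 97.3 CPM in control (adjusted p = 0.163). Its log2 fold change without library 2 was -0.59 (adjusted p = 0.00135). Of the progenitor factors, NES, nestin, had 18.1, 30.4 and 11.0 CPM in siMAPK8_9 and 41.8, 35.2 and 36.1 CPM in control (adjusted p = 0.0582; -1.34 without library 2, adjusted p = 0.00056), and PAX6 10.8, 8.29 and 13.2 CPM in siMAPK8_9 and 11.4, 10.8 and 10.3 CPM in control (adjusted p = 0.917). LIN28B was at 0 in each siMAPK8_9 library and 0.0249, 0 and 0 CPM in control, and of all progenitor factors 2 of 8 tested members were higher and 2 lower, close to the shares of all genes. The progenitor counts were 2 and 4 of 10 without library 2 and 1 and 1 after length correction, and 1 and 3 under total counts.

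Few markers of other retinal cells were measured above the filter, and over all genes 26.8% were higher and 26.1% lower. The summed level of 19 retinal neuron genes was 104, 132 and 109 CPM of nuclear-encoded counts in siMAPK8_9, against 217 to 219 CPM in control, and 1 of 8 tested members was higher and 2 lower; the counts were 1 and 4 without library 2 and 0 and 2 after length correction. Of the pigment epithelium genes 2 of 4 tested members were higher and 1 lower; the counts were 2 and 1 of 5 without library 2 and 2 and 0 after length correction, and 1 and 1 under total counts. Of the microglia and macrophage genes 2 of 3 tested members were higher and 0 lower; the counts were 1 and 1 of 4 without library 2 and 0 and 0 after length correction, and 0 and 0 under total counts. Of the endothelial genes 0 of 4 tested members were higher and 2 lower; the counts were 0 and 2 of 5 without library 2 and 1 and 2 after length correction. The summed level of 8 microglia and macrophage genes was 66.1, 78.0 and 62.4 CPM in siMAPK8_9, against 55.7 to 59.0 CPM in control.

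Library 2 carried epithelial transcripts. The summed level of 48 genes of keratinocytes and other epithelium was 476, 3366 and 534 CPM of nuclear-encoded counts in siMAPK8_9 libraries 1, 2 and 3, and 328 to 336 CPM in the controls. Of the 48 genes, 21, 1 and 22 were at 0 in the siMAPK8_9 libraries, and 4, 8 and 8 in the controls. KRT14, a keratin of basal epithelium, had 0.146, 353 and 0.650 CPM in siMAPK8_9 and 0.0746, 0.0497 and 0.04997 CPM in control. KRT5, its partner, had 0, 208 and 0 CPM in siMAPK8_9 and 0.0746, 0.0249 and 0.0750 CPM in control, and KRT19 0, 54.2 and 0 CPM, against 0 in each control. CDH1, E-cadherin, had 0, 25.6 and 0 CPM in siMAPK8_9 and 0.0249, 0.0249 and 0 CPM in control. CDKN2A and CDKN2B, inhibitors of cyclin D kinases, showed the same pattern, with 0, 1.70 and 0 and 0, 6.59 and 0 CPM in the siMAPK8_9 libraries and 0 in each control; they are named because of that pattern. Of 23 list members tested, 14 were higher with all libraries and 7 higher and 5 lower without library 2, when the list median was 0.31 and not 2.56.

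A few keratins were higher in libraries 1 and 3 as well. KRT18, a simple-epithelium keratin, had 50.8, 113 and 60.1 CPM in siMAPK8_9 and 6.74, 6.49 and 7.47 CPM in control (log2 fold change 3.44 ± 0.32 (SE), adjusted p = 0.000633; 3.01 without library 2). KRT81 had 191, 55.7 and 186 CPM in siMAPK8_9 and 23.8, 23.7 and 25.2 CPM in control, with library 2 the lowest of the 3, and KRT80 46.2, 44.5 and 57.0 CPM in siMAPK8_9 and 20.8, 21.7 and 21.9 CPM in control (adjusted p = 0.00396 and 0.001). KRT8, the partner of KRT18, had 3.22, 161 and 8.29 CPM in siMAPK8_9 and 1.57, 1.69 and 1.47 CPM in control, and its log2 fold change was 5.22 with library 2 and 1.85 without it (adjusted p = 0.00368). The part of the epithelial transcripts in the higher levels of CXCL8, CSF2, IL6, CDKN1A and GDF15 in library 2 was not tested, and each of these 5 genes was higher than control in libraries 1 and 3 too.

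**Figure D4:**
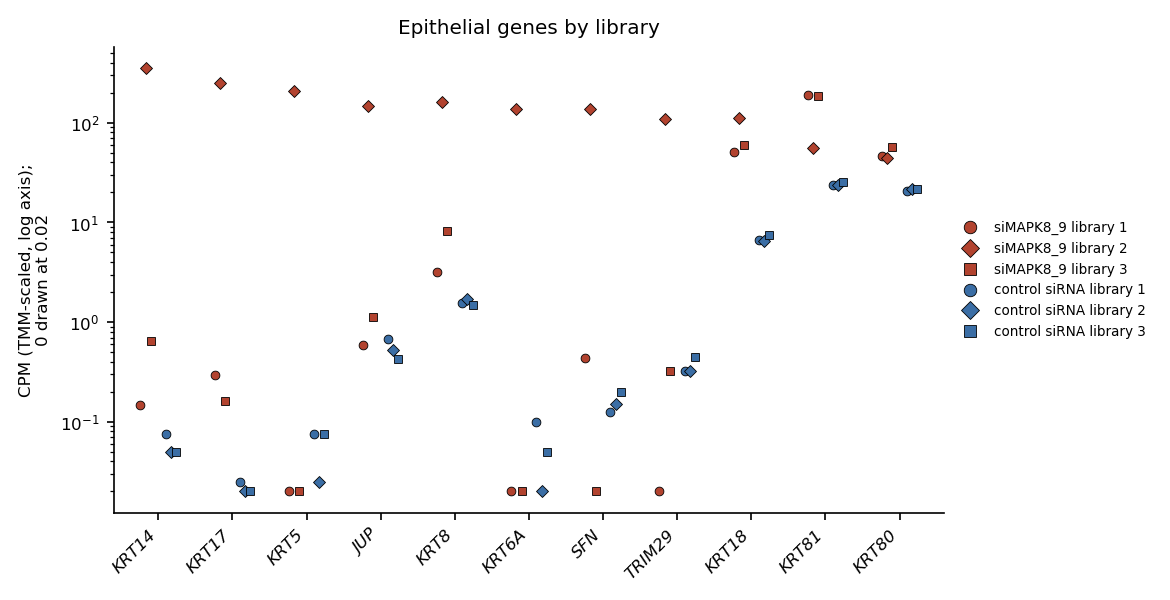
CPM per library (TMM-scaled, log axis, 0 drawn at 0.02) of 11 epithelial genes, siMAPK8_9 at the left of each pair. KRT14 to TRIM29 are high in siMAPK8_9 library 2 (diamonds) alone or nearly so, while KRT18, KRT81 and KRT80 are above the controls in all 3 siMAPK8_9 libraries.

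The knockdown of MAPK14 gave a basis to ask which changes differed with the kinase removed. The siMAPK8_9 effect was set against the siMAPK14 effect in a fit of all 12 libraries, each relative to its own control siRNA; 1231 of 13648 genes (9.02%) had a higher and 938 (6.87%) a lower value in siMAPK8_9, 15.9% in all. The experiments also differ in their batch label, and kinase and batch cannot be told apart in this difference. Without library 2 the counts were 2398 and 2807. The share of mitochondrially encoded genes was raised in the siMAPK14 libraries too, at 39.4% ± 6.61, against 1.63% ± 0.0684 in their controls (SD, n = 3 each). DDIT4 stood at 3.87 with siMAPK8_9 and -0.67 with siMAPK14, a difference of 4.54 ± 0.17 (SE), adjusted p = 3.8e-08. DUSP1 stood at 2.87 with siMAPK8_9 and 0.02 with siMAPK14, a difference of 2.85 ± 0.12 (SE), adjusted p = 9.47e-08. ARG2 stood at 5.01 with siMAPK8_9 and 0.19 with siMAPK14 (difference 4.83 ± 0.27 (SE), adjusted p = 4.33e-07), PLIN2 at 4.46 with siMAPK8_9 and -0.31 with siMAPK14 (difference 4.77 ± 0.31 (SE), adjusted p = 2.22e-06), and GDF15 at 5.81 with siMAPK8_9 and 0.05 with siMAPK14 (difference 5.77 ± 0.39 (SE), adjusted p = 2.57e-06). In these 5 genes the siMAPK14 values lay between -0.67 and 0.19.

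The central ISR factors stood above control in both knockdowns and further above it in siMAPK8_9. The siMAPK14 values were taken without length correction only, and the part of transcript length in them was not tested. DDIT3 stood at 3.94 with siMAPK8_9 and 1.58 with siMAPK14 (difference 2.36 ± 0.17 (SE), adjusted p = 4.18e-06), and ATF4 at 2.24 with siMAPK8_9 and 0.96 with siMAPK14 (difference 1.28 ± 0.15 (SE), adjusted p = 0.000165). TRIB3 stood at 2.86 with siMAPK8_9 and 0.81 with siMAPK14 (difference 2.04 ± 0.16 (SE), adjusted p = 8.71e-06). The NRF2 target TXNRD1 stood at 1.64 with siMAPK8_9 and -0.21 with siMAPK14 (difference 1.85 ± 0.14 (SE), adjusted p = 5.08e-06), and EGLN3 at 2.91 with siMAPK8_9 and -0.81 with siMAPK14 (difference 3.73 ± 0.29 (SE), adjusted p = 7.64e-06). The mitotic kinesin KIF20A was less reduced, at -1.24 with siMAPK8_9 and -1.86 with siMAPK14 (difference 0.62 ± 0.15 (SE), adjusted p = 0.015), and CDK6 more reduced, at -2.15 with siMAPK8_9 and -1.53 with siMAPK14 (difference -0.62 ± 0.16 (SE), adjusted p = 0.0223), although the CDK6 difference did not pass the threshold after length correction (adjusted p = 0.282). SOX2 stood at -1.50 with siMAPK8_9 and 0.16 with siMAPK14 (difference -1.67 ± 0.32 (SE), adjusted p = 0.00473), and NRG1 at -1.12 with siMAPK8_9 and 0.59 with siMAPK14 (difference -1.71 ± 0.19 (SE), adjusted p = 0.000155). The difference for JUN did not pass the threshold, at 0.59 ± 0.30 (SE), adjusted p = 0.196.

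**Figure D5:**
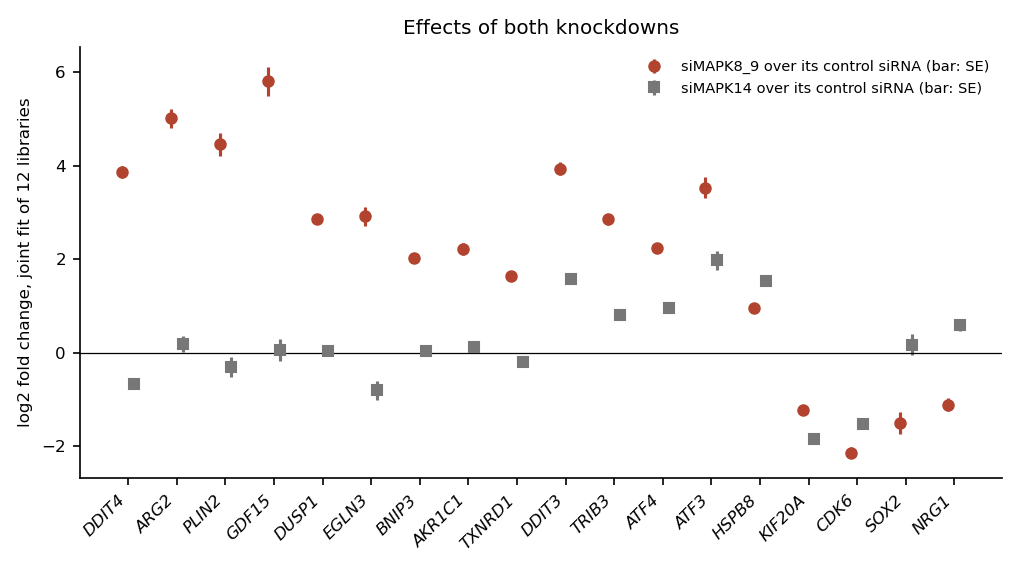
log2 fold change over the own control siRNA (y axis) of 18 genes with siMAPK8_9 (circles, left of each pair) and siMAPK14 (squares), from a fit of all 12 libraries; bars are SE. DDIT4, ARG2, PLIN2, GDF15 and DUSP1 lie between -0.67 and 0.19 with siMAPK14 and above 2 with siMAPK8_9, and DDIT3, TRIB3 and ATF4 are above 0 in both.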

How the data were processed

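Strand use and the gene annotation are not given in the sources used here. The authors deposited expected counts and FPKM values per gene and library. Tools listed without roles in the submitters' processing notes are RSEM 1.3.1, DESeq2 1.4.5 and Bowtie2 2.3.4.3, beside the build GRCh38.p14. The deposited tables hold 24 further per-sample columns that were not used.

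From these, expected counts were rounded and genes kept with edgeR's filterByExpr (minimum count 10, total 15). They were scaled by TMM and tested with edgeR's quasi-likelihood test (edgeR 4.0.16, limma 3.58.1, R 4.3.3), with Benjamini-Hochberg adjustment over all genes tested and a threshold of 0.05. The difference between knockdowns was an interaction contrast in 1 fit of all 12 libraries. Effective length came from the ratio of count to deposited FPKM (count at least 10, FPKM at least 0.2, 13631 genes), and length correction used a lowess trend of span 0.3. Levels are TMM-scaled CPM and carry length, so they are compared between libraries and not between genes. Alternatives were DESeq2 1.42.0, limma-voom, total-count and relative-log scaling, filters, length correction, a replicate block and leaving out each library. Length correction without library 2, and the antioxidant response element, were added after seeing the data. The scripts were tested on simulated data. Python 3.11.15 and matplotlib 3.10.9 drew the figures. Promoters and coordinates are from RefSeq on GRCh38.p14.

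The 44 gene lists, of which 1 is not reported here, and the genes to be named were chosen with earlier results of these data known. Named were MAPK8 to MAPK10, the 14 highest and 14 lowest fold changes (at least 10 CPM in 1 group, groups not overlapping, same direction without library 2 and after length correction), up to 4 genes per list by adjusted p (at least 5 CPM), a fixed set of stress, JNK and glial genes, and the epithelial genes of library 2. The 14 highest, the 14 lowest and the genes named per list also had to pass the threshold in the same direction without library 2. Genes outside this rule are marked. Intervals and limits of a 0 count cover counting error only.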

Additional observations from a re-analysis of the deposited data

How the results depend on the processing

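Without siMAPK8_9 library 2 every named gene that had passed the threshold passed it again in the same direction, and 9 more passed. Over all alternatives MAPK8 stayed between -0.59 and -2.17 and MAPK9 between -0.79 and -2.20, each past the threshold. Leaving out each library in turn gave 4509 to 9554 genes past the threshold (6938 with all), 2307 to 4514 higher and 2198 to 5040 lower; the lowest came without a control library, the highest without siMAPK8_9 library 2. Total counts gave 1122 higher. Length correction gave 2121 lower, and with the replicate block 3911 past the threshold, 2163 higher and 1748 lower. The block alone gave 2873 higher and 3185 lower. Same-numbered libraries of the 2 groups had correlations of deviations of -0.075, -0.067 and -0.052. With 3 libraries per group these values cannot tell whether same-numbered libraries were handled together. For the difference from siMAPK14 (2169, with 1231 higher and 938 lower), leaving out each library gave 1266 to 5205 past the threshold, 773 to 2398 higher and 481 to 2807 lower. The replicate block gave 1179, 722 and 457, length correction without library 2 gave 4653, 2543 and 2110, and total counts gave 1028 past the threshold and 184 lower. DESeq2 gave 1453 lower, and length correction with the block 567 lower.

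Named genes that changed sign while past the threshold in at least 1 of the fits compared were as follows. After length correction, the same with the block, and the same without library 2, BAX was at -0.0017, -0.0038 and -0.054, MAP3K2 at 0.35, 0.35 and 0.38, PPP1R15B at 0.58, 0.58 and 0.63, S100A6 at -0.037, -0.046 and -0.17, EIF2AK2 at 0.11, 0.084 and 0.29, and LARS1 at 0.20, 0.19 and 0.25. After length correction without library 2, FOSL2 was at 0.18 (0.31 with it, not past the threshold) and EIF2AK4 at 0.021. Under total counts GLUL was at -0.18, GCLM at -0.022 and ME1 at -0.084. Where neither fit passed the threshold, 12 named genes changed sign in at least 1 alternative, among them MYC, MDM2, STAT3 and SOX9 after length correction and PAX6 without library 2. The causes were not tested. The siMAPK8_9 libraries had fewer counts than the controls and a large mitochondrial share, which limits what can be said of low genes; length correction assumes that the trend is not part of the response.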
